A study of Homo sapiens with 47 samples.

Results

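Ishikawa cells, a human endometrial adenocarcinoma line, were profiled by ChIP-seq in the control arm of a study of dCas9 activators, and this account compares acetylation of histone H3 at lysine 27 (H3K27ac) with RNA polymerase II (RNAPII) across the genome of these control cells. The members are the libraries whose gRNAs were directed to the IL1RN promoter alone, 8 of 47 samples in all. They are 4 H3K27ac and 4 RNAPII libraries, with 2 of each from cells that expressed dCas9-VP16(10x), a catalytically dead Cas9 fused to repeats of a viral activation domain, and 2 of each from cells that expressed dCas9-p300(core), the same protein fused to the acetyltransferase core of p300. All 8 came from cells kept in hormone-depleted media, transfected with plasmids for the fusion and for the gRNAs, and selected with drugs before chromatin was harvested. The controls therefore carried an activator too, and no untransfected cells were analysed here. The plasmids were transfected into a population of cells, not into a clonal line. Peaks at the IL1RN promoter were left out.

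H3K27ac is placed by the related acetyltransferases p300 and CBP and lies on nucleosomes at active promoters and enhancers. Since the transcription start site (TSS) of an active gene is depleted of nucleosomes, the mark is known to flank it. RNAPII is loaded at the TSS and commonly pauses a short distance downstream before elongation, so that ChIP of RNAPII gives its sharpest signal there. The RNAPII antibody used, clone 4H8, binds the repeats at the C terminus of the largest subunit.

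The sequences below show some of the promoters compared, as the 100 bases upstream of the TSS on hg19, 5′ to 3′ on the strand of the gene. Capitals mark the TATA box core TATAAA, the core of the CCAAT box under that name, and the GC box core GGGCGG, on either strand. H1-4 and TRAF7 are from promoters with relatively more RNAPII, SETD2, RASAL2, UPF2 and CTCF from promoters with relatively more H3K27ac, and RGS16 and G0S2 from promoters with RNAPII peaks in every library and H3K27ac peaks in none.
H1-4, chr6:26156457-26156556, plus strand: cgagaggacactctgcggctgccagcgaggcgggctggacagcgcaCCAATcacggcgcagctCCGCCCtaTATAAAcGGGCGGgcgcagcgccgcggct
TRAF7, chr16:2205599-2205698, plus strand: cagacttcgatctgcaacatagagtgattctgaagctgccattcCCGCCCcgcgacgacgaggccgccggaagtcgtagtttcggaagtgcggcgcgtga
SETD2, chr3:47205604-47205703, minus strand: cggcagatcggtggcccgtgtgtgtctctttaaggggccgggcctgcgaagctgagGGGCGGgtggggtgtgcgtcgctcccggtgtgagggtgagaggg
RASAL2, chr1:178063139-178063238, plus strand: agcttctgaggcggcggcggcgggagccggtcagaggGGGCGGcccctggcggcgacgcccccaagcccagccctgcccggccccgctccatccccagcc
UPF2, chr10:12084809-12084908, minus strand: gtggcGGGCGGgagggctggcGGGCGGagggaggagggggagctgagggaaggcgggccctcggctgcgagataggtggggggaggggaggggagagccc
CTCF, chr16:67596270-67596369, plus strand: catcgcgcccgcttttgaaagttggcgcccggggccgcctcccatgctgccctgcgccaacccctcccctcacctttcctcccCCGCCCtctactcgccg
RGS16, chr1:182573525-182573624, minus strand: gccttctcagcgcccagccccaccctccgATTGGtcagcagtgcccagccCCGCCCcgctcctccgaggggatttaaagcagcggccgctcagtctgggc
G0S2, chr1:209848657-209848756, plus strand: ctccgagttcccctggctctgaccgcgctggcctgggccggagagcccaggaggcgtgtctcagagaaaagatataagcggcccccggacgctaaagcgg
The H1-4 promoter holds all 3 motifs, with TATAAA starting 29 bases before the TSS. GGGCGG alone was found in TRAF7, SETD2, RASAL2, UPF2 and CTCF, CCAAT and GGGCGG in RGS16, and none of the motifs in the 100 bases of G0S2.

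The peak lists, 1 per library, were called by the authors with a -log10 p of at least 10.0 and held 4088 to 35592 peaks. H3K27ac lists held 16463 and 25160 peaks with dCas9-VP16(10x), and 18664 and 4088 with dCas9-p300(core), as replicates 1 and 2. RNAPII lists held 35592 and 33212 peaks with dCas9-VP16(10x), and 18809 and 27078 with dCas9-p300(core). The H3K27ac dCas9-p300(core) replicate 2 list thus stood apart as the shortest, and 99.9% of its peaks overlapped a peak of H3K27ac dCas9-VP16(10x) replicate 2. Every count that requires a peak in all 4 H3K27ac libraries is bounded by this list, so values are also given without it.

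Replicates of H3K27ac differed in which promoters were strongest. Over the 1890 protein-coding promoters with a peak in all 8 libraries, Spearman's rho of the fold enrichment was 0.96 between the replicate 1 libraries of the 2 constructs, 0.59 between the replicate 2 libraries, and 0.08 to 0.18 between a replicate 1 and a replicate 2 library. RNAPII libraries had a rho of 0.44 to 0.88 with each other. RNAPII dCas9-p300(core) replicate 2 had a rho of 0.63 with each RNAPII dCas9-VP16(10x) library, and 0.59 and 0.60 with the H3K27ac replicate 1 libraries. Its rho with the other RNAPII library of its construct was lower, 0.44. These correlations are a description across promoters, which share libraries and are not independent replicates. Peak names carried the same leading number for both H3K27ac replicate 1 libraries and both RNAPII dCas9-p300(core) libraries. They carried another for the RNAPII dCas9-VP16(10x) pair, and no such number for the H3K27ac replicate 2 libraries. The labels do not say what the number stands for, and libraries that share it are called a run here. Only the first of these runs holds both antibodies, and values from its 4 libraries alone are given for the promoter comparisons.

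**Figure D1:**
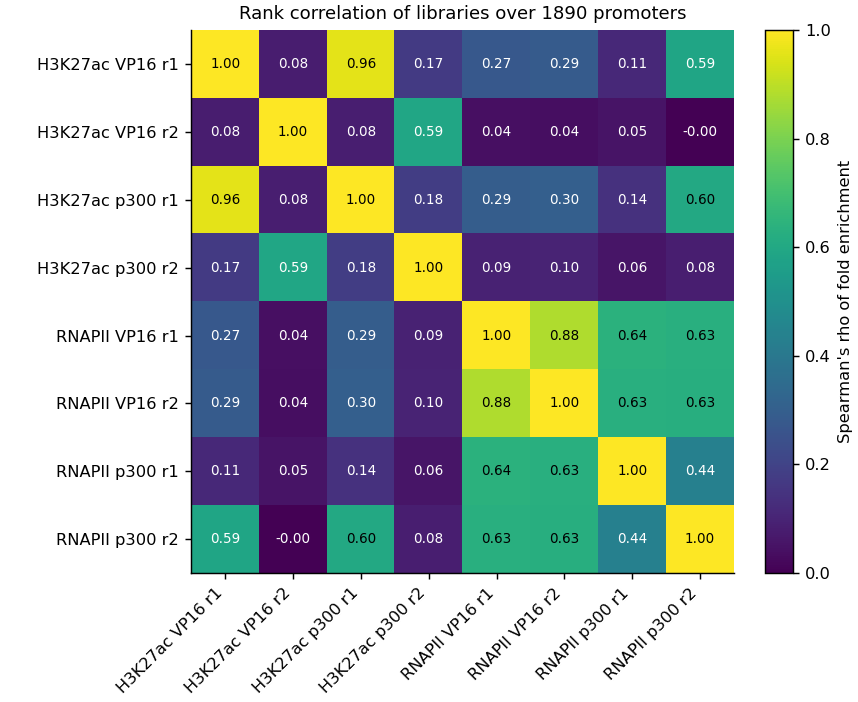
Spearman's rho of fold enrichment for each pair of the 8 libraries over 1890 protein-coding promoters with a peak in all 8, with antibody, construct and replicate (r1, r2) on both axes and colour from 0 to 1. The H3K27ac replicate 1 libraries form a block at 0.96 and the RNAPII dCas9-VP16(10x) pair one at 0.88. RNAPII dCas9-p300(core) replicate 2 has 0.63 with each library of that pair and reaches 0.60 with H3K27ac.

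The RNAPII dCas9-VP16(10x) replicates differed by less than the sampling noise. A chi-square test of their reads at 22 regions of the authors' table gave p = 0.773 (2558 and 2397 reads, chi-square 15.9 with 21 degrees of freedom), whereas the other 3 replicate pairs gave chi-square values of 371 to 1208. The pair was therefore counted as 1 sample in RNAPII means and SDs (n = 3), and tests and calls are given with the pair as 2 samples and as 1. The labels do not say that replicates came from separate cultures, so p-values measure the spread between these libraries, which may be technical. Library totals are not given by peak lists, so the read depth behind each fold enrichment is unknown.

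H3K27ac lists had fewer peaks than RNAPII lists on average, 16092 ± 8814 (SD, n = 4) against 26761 ± 7800 (SD, n = 3), and the ranges overlapped. The difference did not pass an exact two-sided permutation test (p = 0.0571 with 4 against 4, 0.143 with the pair as 1). Median peak width was 730, 463, 563 and 289 bp for H3K27ac (dCas9-VP16(10x) replicates 1 and 2, then dCas9-p300(core) replicates 1 and 2) and 352, 333, 402 and 594 bp for RNAPII in the same order. The widths overlapped between antibodies (exact permutation p = 0.457, and 0.629 with the pair as 1), and the direction of their difference reversed among dCas9-p300(core) libraries alone.

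Both antibodies gave mostly promoter peaks. Summits within 1 kb of a GENCODE transcript start were 76.9%, 63.1%, 77.6% and 65.8% of H3K27ac peaks and 57.3%, 60.2%, 66.4% and 69.2% of RNAPII peaks, in the same order of libraries, while such positions make up 7.03% of the genome. The means were 70.9% ± 7.48 (SD, n = 4) for H3K27ac and 64.8% ± 5.43 (SD, n = 3) for RNAPII, and the ranges overlapped. Peaks inside gene bodies made up 20.02% ± 4.57 (SD, n = 4) and 23.3% ± 3.08 (SD, n = 3), and intergenic peaks 9.13% ± 3.24 (SD, n = 4) and 11.9% ± 3.02 (SD, n = 3). None of these shares differed by an exact permutation test with 4 against 4 (p = 0.2, 0.2 and 0.171), for which the smallest possible p is 0.0286, nor with the pair as 1 (exact p = 0.286, 0.343 and 0.286). The share near a TSS depended on what was counted. With starts of protein-coding transcripts only, all 4 H3K27ac libraries lay above the RNAPII libraries (difference of 11.2 percentage points, exact permutation p = 0.0286), whereas with the 4086 most significant peaks of every library the H3K27ac share was lower by 10.5 percentage points (p = 0.371).

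**Figure D2:**
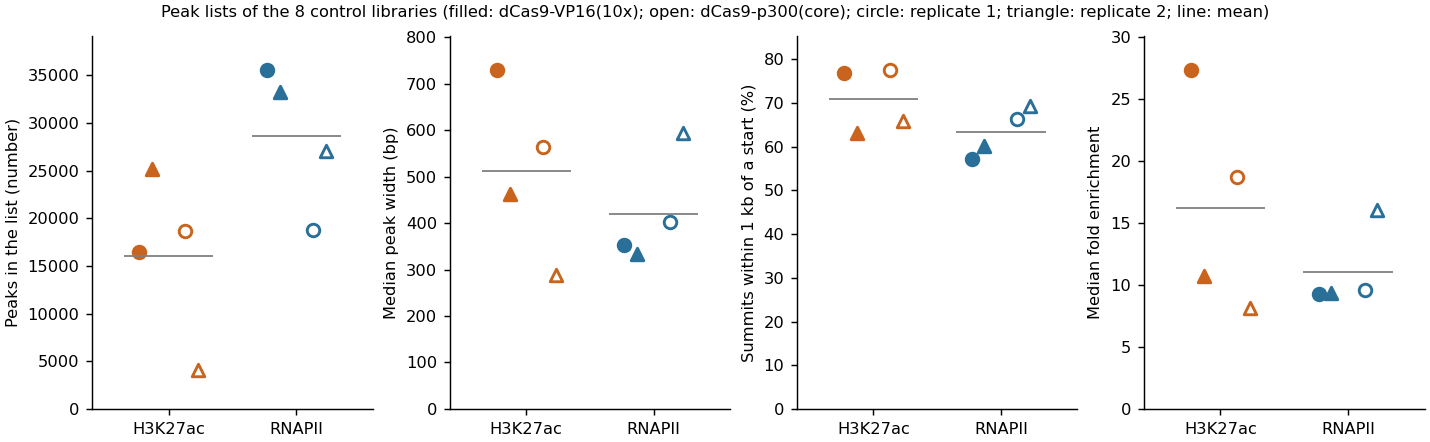
Number of peaks, median peak width (bp), share of summits within 1 kb of a transcript start (%) and median fold enrichment for each of the 8 libraries, with H3K27ac in orange and RNAPII in blue. Filled symbols are dCas9-VP16(10x), open symbols dCas9-p300(core), circles replicate 1, triangles replicate 2, and lines the mean of the 4 libraries, and the antibodies overlap in all 4 panels.

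Peaks were merged across the 4 libraries of an antibody, and regions with a peak in all 4 were kept as constant. H3K27ac had 2288 constant regions of 29643 and RNAPII 11196 of 43727. Of the constant H3K27ac regions, 1836 overlapped a constant RNAPII region by at least 1 bp (80.2%, 95% Clopper-Pearson interval 78.6 to 81.9, which covers counting error only), and 98.8% overlapped an RNAPII peak of at least 1 library. Of the constant RNAPII regions, 17.3% (95% interval 16.6 to 18) overlapped a constant H3K27ac region, and 84.4% an H3K27ac peak of at least 1 library. Without H3K27ac dCas9-p300(core) replicate 2, the constant H3K27ac regions rose in number to 9003, of which 76.1% overlapped constant RNAPII, and the share of RNAPII regions with constant H3K27ac became 61.4%.

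The overlap was highest near a TSS for H3K27ac regions. Without the shortest list, 81.6% of constant H3K27ac regions within 1 kb of a TSS overlapped constant RNAPII (6546 of 8023), against 34.5% of those 1 to 10 kb away (201 of 583) and 26.7% of those beyond 10 kb (106 of 397). Constant RNAPII regions overlapped constant H3K27ac in 67.9% of cases near a TSS (6533 of 9624), 18.5% at 1 to 10 kb (236 of 1273) and 36.8% beyond 10 kb (110 of 299). With all 4 H3K27ac libraries, the shares of H3K27ac regions were 89.6%, 36.8% and 31.9% in the same order. Those of RNAPII regions were 18.2%, 9.43% and 20.1%, so that their share near a TSS was no longer the highest. No test was made on these shares, since regions are not replicates.

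The strongest constant H3K27ac regions beyond 10 kb of any transcript start were all intergenic. The highest mean percentile of fold enrichment within its library, 97.5, was that of chr12:52537061-52547218, 43645 bp from the nearest coding start, of the keratin gene KRT80. Its H3K27ac fold enrichment was 112, 40.6, 73.4 and 20.6, and its RNAPII fold enrichment 23.5, 22.8, 13.7 and 32.1, in the order of libraries above. The region thus had a peak of both antibodies in every library, and it also held 4 HA peaks. It was followed by chr14:69282412-69284569 near ZFP36L1, an mRNA decay factor, with RNAPII in 3 of 4 libraries, and by chr11:9383871-9386556 near IPO7, an importin, chr9:132175089-132177315, whose nearest coding start is that of NTMT1 194962 bp away, and chr11:355117-356599 near B4GALNT4, each with RNAPII in 4 of 4.

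Among constant RNAPII regions beyond 10 kb, the highest mean percentile, 95.7, was at chr4:49163268-49163686, an intergenic region close to the centromere. H3K27ac had a peak there in both replicate 1 libraries (19.2 and 20.03) and in neither replicate 2 library, while RNAPII gave 26.8, 27.01, 28.04 and 42.3. The next were chr2:121199625-121200955 with H3K27ac in 3 libraries, chr2:232544982-232547200 near PTMA (prothymosin alpha) with H3K27ac in 4, and chr18:3623407-3624626 in an intron of DLGAP1 with H3K27ac in 4. The fifth, chr7:127743321-127744967, between genes and 71983 bp from the start of LRRC4, had RNAPII fold enrichments of 22.97, 14.1, 17.4 and 59.4 and no H3K27ac peak in any library.

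The position of the summit separated the antibodies in every library. At the 1890 promoters with a peak in all 8 libraries, the median distance of the strongest summit from the nearest coding start of the gene was 185, 199, 180 and 224 bp for H3K27ac and 78, 72, 97 and 87 bp for RNAPII. The lowest H3K27ac value lay above the highest RNAPII value, with means of 197 ± 19.7 bp (SD, n = 4) and 86.3 ± 11.02 bp (SD, n = 3). The difference of 114 bp had p = 0.0286 in the exact two-sided permutation test with 4 against 4, the smallest it can give, and 0.171 after Benjamini-Hochberg adjustment over 6 comparisons of libraries. With the pair as 1 sample, the difference was 111 bp and p was again 0.0286. Within the run that holds both antibodies the difference was 81.5 bp, and 2 libraries against 2 cannot pass a permutation test.

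RNAPII summits were centred on the TSS, with a median signed position of 0.0 to 8.0 bp, and 51.4% to 56.5% of them lay within 100 bp of it. H3K27ac summits were displaced downstream, with a median of 79.0 to 87.0 bp, 57.4% to 63.1% of them downstream of the TSS, and 16.2% to 27.6% within 100 bp. In every H3K27ac library 55.7% to 67.5% of summits lay 150 to 1000 bp from the TSS, compared with 32.5% to 36.0% in RNAPII libraries. Single promoters varied around these medians. At HSP90AA1, which encodes an inducible cytosolic chaperone, H3K27ac lay on the other side of the TSS, with the RNAPII summit at 43 bp and the H3K27ac summit at -456 bp from the TSS (median of 4 libraries, negative upstream).

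**Figure D3:**
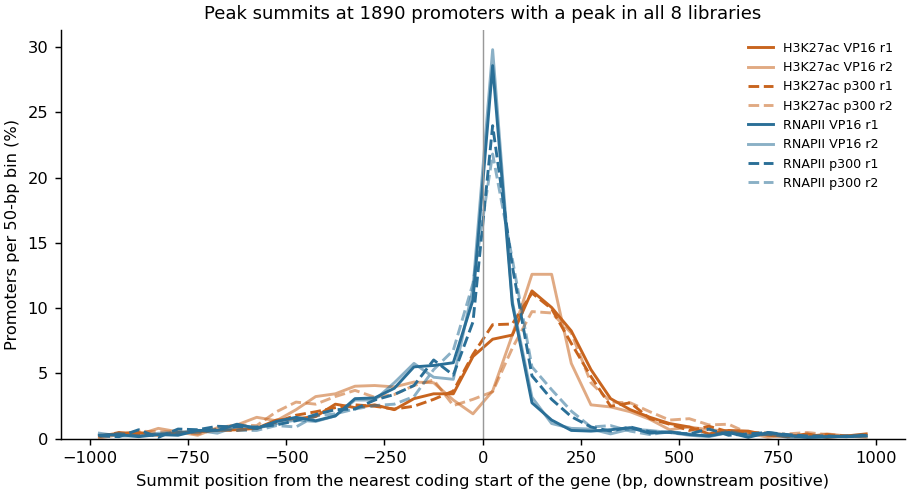
Share of 1890 promoters (%) whose strongest summit fell in each 50-bp bin around the nearest coding start of the gene, from 1000 bp upstream to 1000 bp downstream, for each library (orange H3K27ac, blue RNAPII, solid dCas9-VP16(10x), dashed dCas9-p300(core), pale replicate 2). All 4 RNAPII lines peak in the first bin downstream of the TSS, and all 4 H3K27ac lines peak in the bin centred 125 bp downstream, 1 of them equally at 175 bp, with medians of the distance at 180 to 224 bp against 72 to 97 bp.

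Of 19756 protein-coding genes, 13880 had a promoter peak, defined as a peak overlapping 1 kb on either side of a coding start, in at least 1 library. RNAPII was at 9206 promoters in all 4 libraries. H3K27ac was at 1999 in all 4 libraries and at 8291 in all 3 without the shortest list, of which 7084 had RNAPII in 4 of 4, 1200 in 1 to 3 libraries and 7 in none. The share of RNAPII promoters with H3K27ac in all 3 libraries rose with the RNAPII level, from 58.8% in the lowest of 4 equal groups by mean percentile, through 76.0% and 83.3%, to 89.7% in the highest. In the other direction, the share of H3K27ac promoters with RNAPII in 4 of 4 went from 80.7% through 82.7% and 86.9% to 91.4%. These shares are descriptions, and a weak promoter is also less likely to be called in every library.

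No promoter had H3K27ac in 4 of 4 libraries and RNAPII in none. The 7 with H3K27ac in 3 of 3 and no RNAPII peak, chosen after the values were seen because the planned class was empty, were SRMS, KRT23, NEURL3, IER3, PLXDC1, LEFTY2 and the unnamed gene ENSG00000291312. The H3K27ac fold enrichment at KRT23, a keratin, was 15.7, 10.1 and 13.1, and that at LEFTY2, an antagonist of Nodal signaling expressed in endometrium, was 12.9, 8.11 and 8.04. Within their libraries these 2 genes lay between the 8.57 and the 44.5 percentile, whereas ENSG00000291312 reached the 77.1 percentile and SRMS, a tyrosine kinase, the 93.3 percentile in H3K27ac dCas9-VP16(10x) replicate 2. A further 53 such promoters had RNAPII in a single library, and in 51 of the 53 that library was RNAPII dCas9-p300(core) replicate 2.

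RNAPII without H3K27ac was more frequent, with 231 promoters that had RNAPII in 4 of 4 libraries and H3K27ac in 0 of 4. The H3K27ac lists were shorter on average, and the part of list length in this count was not tested. The median RNAPII percentile of the 231 promoters was 60.4, below the 74.9 of all promoters with RNAPII in 4 of 4. For 49 of them (21.2%) an H3K27ac peak of some library lay within 5 kb of the TSS, and the median distance to the nearest H3K27ac peak was 20.1 kb. The strongest of the 231 by mean percentile included SMIM47, POU2F2, CLU, G0S2, SAT1, which shares its peaks with ENSG00000288706, SPNS2, CD68 and RGS16. At SMIM47 and SPNS2 the peak reached into the 1 kb window, but its summit lay outside, at -1856 and 1469 bp from the TSS (negative upstream). The RNAPII fold enrichment at POU2F2, a POU-domain transcription factor, was 30.9, 26.6, 21.0 and 73.5. At CLU, which encodes the secreted chaperone clusterin, it was 25.1, 22.3, 20.1 and 59.2, and at RGS16, a regulator of G-protein signaling, 19.4, 20.9, 14.6 and 39.3. In these genes the highest value was that of RNAPII dCas9-p300(core) replicate 2, whose median fold enrichment over all peaks, 16.1, was above the 9.29 to 9.63 of the other RNAPII libraries. At CD68 that library was instead the lowest (34.6, 35.01, 43.8 and 25.6).

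The promoters with the strongest H3K27ac, by mean percentile over 4 libraries, were those of RHOF, USP1, EYA4, DEAF1, EPS8L2, MIB2, ACTG1, GRHL2, HCFC1, ELOB, USP22 and EIF5. RHOF, a small GTPase, led with fold enrichments of 158, 51.0, 117 and 19.7, a mean percentile of 99.8, against RNAPII fold enrichments of 22.99, 19.6, 11.6 and 47.2. The values differed up to several-fold between libraries of the same antibody, so fold enrichments were compared only after ranking or centring within a library. DEAF1, a transcription factor, and EPS8L2, a regulator of actin remodeling, start next to each other on opposite strands and had the same H3K27ac peaks (145, 49.0, 86.8 and 22.7). GRHL2, a transcription factor that maintains epithelial identity, had H3K27ac of 160, 39.2, 115 and 14.7 and RNAPII of 23.4, 23, 17.6 and 61.7. The mean RNAPII percentile of these 12 promoters ran from 75.4 at DEAF1 to 99.97 at ACTG1.

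Promoters with the strongest RNAPII included those of FLNA, ACTG1, HSP90AA1, TMSB4X, ID4, FSCN1, CHCHD7, BAIAP2, APLP2, HNRNPAB and CEBPB. FLNA, which encodes the actin crosslinker filamin A, had RNAPII fold enrichments of 69.2, 69.6, 58.0 and 152 and H3K27ac fold enrichments of 69.3, 23.3, 50.7 and 12.02. ACTG1, the gene of cytoplasmic gamma-actin and the only gene named in both lists, had RNAPII of 67.9, 66.6, 45.7 and 117 and H3K27ac of 148, 42.2, 103 and 15.3. At FSCN1, an actin-bundling protein, RNAPII was 56.8, 55.9, 34.6 and 116, while H3K27ac had peaks in the replicate 1 libraries only (20.8 and 11.6). CHCHD7 shares its promoter peaks with PLAG1, a zinc finger transcription factor on the other strand, and showed the same arrangement, with RNAPII of 55.2, 52.7, 35.6 and 103 and H3K27ac of 18.2 and 21.8 in the replicate 1 libraries. For 7 of these 11 genes at least 1 H3K27ac library, always including dCas9-p300(core) replicate 2, had no peak.

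To compare the balance of the antibodies, log2 fold enrichment was centred on the median of each library over the genes tested, since the fold enrichments of 2 antibodies share no scale. A difference is thus relative to the median promoter. With limma over the 1890 promoters with a peak in all 8 libraries, 101 had relatively more RNAPII (5.34% of those tested) and 82 relatively more H3K27ac (4.34%) at an adjusted p under 0.05. At an unadjusted p under 0.05 there were 548. With the RNAPII dCas9-VP16(10x) pair as 1 sample, 11 (0.582%) and 6 (0.317%) were left, all of them among the 101 and 82. Without H3K27ac dCas9-p300(core) replicate 2, 7084 promoters could be tested, and 639 (9.02%) and 507 (7.16%) passed, including 40 of the 101 and all 82. With that library left out and the pair as 1 sample, 218 (3.08%) and 189 (2.67%) passed. Within the run that holds both antibodies, 1083 (13.8%) and 685 (8.75%) of 7830 promoters passed. That fit has 2 libraries of each antibody, and its RNAPII libraries are of dCas9-p300(core) only. Its H3K27ac libraries, 1 per construct, had a rho of 0.96, and the chi-square check of reads was not made on them. Their spread may thus understate that between independent samples. None of these 101 and 82 promoters changed the sign of its difference in any of these fits, which reuse the values on which the promoters were chosen.

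The libraries with other gRNA pools were not used to make these calls. In their 16 H3K27ac and 16 RNAPII libraries, the difference of the medians had the same sign at all 101 and all 82 promoters, compared with 76.5% of all tested promoters with a positive difference and 80.2% of those with a negative one. The promoters that passed have larger differences than the rest, so the shares are not matched for size. Of the 1890 promoters, 72.9% also had a peak in the HA ChIP-seq library of the dCas9-VP16(10x) control, as did 89 of the 101 and 59 of the 82. Among the 512 promoters without an HA peak, limma called 0 in either direction, with 121 at an unadjusted p under 0.05. In the fit of all 1890, 35 of the called promoters had no HA peak. The fit of 512 uses the same values with new centring, so every difference shifts by the same amount. Limma also re-estimated its variances there and adjusted over 512 instead of 1890 promoters. The difference at H1-4 was 1.82 log2 (limma adjusted p = 0.0604), beside 1.74 log2 among all 1890 (limma adjusted p = 0.0215). At UPF2 it was -1.30 log2 (limma adjusted p = 0.0966), beside -1.38 log2 (limma adjusted p = 0.0375).

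Among the called promoters whose libraries did not overlap between antibodies (97 of the 101 and 78 of the 82, where 9.95% and 9.21% of all tested promoters had no overlap in the same directions), the 8 with the largest difference toward RNAPII were LRSAM1 with RPL12, FLNA, PPP1R15A, RPL15, H1-4, TRAF7, HSPA5 and PFKFB3. LRSAM1 and RPL12, which encodes a ribosomal protein, share 1 set of peaks, with RNAPII fold enrichments of 34.5, 36.0, 31.3 and 44.6 and H3K27ac fold enrichments of 16.2, 14.2, 19.9 and 6.45. After centring, the lowest RNAPII value, 0.25, lay above the highest H3K27ac value, -0.43, and the difference was 2.09 ± 0.38 log2 (SE; limma adjusted p = 0.0142). At FLNA the difference was 1.98 ± 0.20 log2 (limma adjusted p = 0.000683, and 0.00527 with the pair as 1 sample).

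PPP1R15A (GADD34), which restores translation after stress, had RNAPII of 24.8, 22.4, 25.9 and 36.5 and H3K27ac of 10.9, 14.4, 17.2 and 5.47. HSPA5, the chaperone BiP of the endoplasmic reticulum, had RNAPII of 34.5, 43.3, 36.5 and 69.4 and H3K27ac of 28.5, 19.4, 40.9 and 8.67. After centring, the HSPA5 values did not overlap between antibodies (1.69 ± 0.29 log2, SE; limma adjusted p = 0.0126). PFKFB3, a regulator of glycolytic flux, had RNAPII of 40.96, 41.2, 36.1 and 82.9 and H3K27ac of 61.3, 17.7, 41.8 and 6.44, a difference of 1.65 ± 0.16 log2. H1-4, a linker histone whose promoter is shown above, had RNAPII of 25.0, 26.2, 25.8 and 44.7 and H3K27ac of 20.3, 13.2, 15.7 and 8.05. With the pair as 1 sample, FLNA, PFKFB3 and HSPA5 kept a limma adjusted p under 0.05, and LRSAM1, PPP1R15A, RPL15, H1-4 and TRAF7 did not (0.0593 to 0.136). In the run with both antibodies, whose H3K27ac libraries were closely correlated, all 8 passed (limma adjusted p of 0.0196 to 0.037).

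The 8 with the largest difference toward H3K27ac were SETD2, RASAL2, UPF2, SRSF4, HIPK3, CTCF, BCL2L1 and GTF2I. SETD2, the methyltransferase of H3K36, had H3K27ac fold enrichments of 112, 19.3, 80.6 and 8.36 and RNAPII fold enrichments of 4.48, 7.57, 4.93 and 21.6. Centred, all H3K27ac values lay above all RNAPII values, and the RNAPII minus H3K27ac difference was -1.54 ± 0.32 log2 (SE; limma adjusted p = 0.0209). CTCF, the insulator-binding protein, had H3K27ac of 174, 28.1, 123 and 9.23 and RNAPII of 11.7, 14.5, 9.41 and 18.4, a difference of -1.26 ± 0.30 log2. GTF2I, a transcription factor that binds initiator elements, had H3K27ac of 130, 34.4, 86.6 and 14.8 and RNAPII of 11.4, 10.6, 10.4 and 29.6, with the smallest spread of these genes (-1.20 ± 0.16 log2; limma adjusted p = 0.00347).

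The other 5 were RASAL2, a Ras GTPase activator, UPF2, a nonsense-mediated decay factor, SRSF4, a splicing factor, HIPK3, a kinase, and BCL2L1, which encodes the survival factor BCL-X, with differences of -1.47 to -1.24 log2. With the pair as 1 sample, only RASAL2 and GTF2I of the 8 kept a limma adjusted p under 0.05 (0.0359 and 0.0244). In the run with both antibodies, 7 of the 8 passed and UPF2 had a limma adjusted p of 0.0618.

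**Figure D4:**
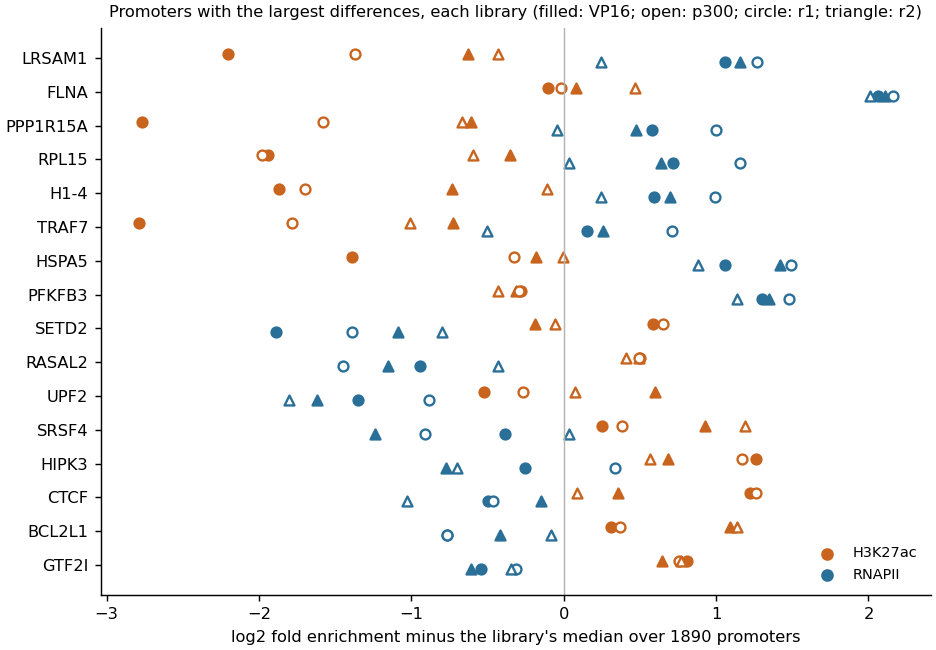
log2 fold enrichment minus the median of the library over 1890 promoters for each library (orange H3K27ac, blue RNAPII, filled dCas9-VP16(10x), open dCas9-p300(core), circle replicate 1, triangle replicate 2) at the 8 promoters with the largest called difference in each direction. The 16 promoters were chosen among those without overlap between the antibodies, and the differences run from 2.09 (LRSAM1) to -1.54 (SETD2).

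The sequences of the called promoters are described here without a test. In the 300 bases from 250 before the TSS to 50 from it on, TATAAA on either strand was in 17.8% of the 101 promoters with more RNAPII and in 2.44% of the 82 with more H3K27ac, against 5.08% of the 1890 tested and 9.25% of all 19756 protein-coding promoters. CCAAT was in 44.6% and 24.4%, against 35.7% of those tested and 34.7% of all, and GGGCGG in 83.2% and 85.4%, against 76.8% and 60.6%. The motifs can overlap within 1 promoter, and a match is a description of these letters only. Without the shortest H3K27ac list the TATAAA shares were 7.98% of 639 and 1.78% of 507, against 3.81% of the 7084 tested, and in the run with both antibodies 6.28% of 1083 and 2.04% of 685. Without that list CCAAT was in 35.5% and 30.4%, against 35.3%, and the order of GGGCGG turned, with 82.2% and 78.7%, against 78.6%. Median GC content was 67.3% and 70.5%, against 66.8% of those tested. Promoters with RNAPII and no H3K27ac had a median GC content of 61.3% and a CpG observed-to-expected ratio of 0.68, compared with 67.7% and 0.881 at the 7084 promoters with both marks, and 9.09% of them had a coding start on the opposite strand within 1 kb upstream, compared with 22.9%.

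With all libraries, heat shock proteins and chaperones had the largest share of tested promoters toward RNAPII among the 8 gene lists examined. The share fell when libraries were left out or combined. Without the shortest list it was below that of the immediate early and the ribosomal protein genes. In the run with both antibodies it was below that of the immediate early and the histone genes. Of 12 genes, 11 had RNAPII in 4 of 4 libraries and H3K27ac in the 3 longer lists. Of the 8 tested, 7 had relatively more RNAPII and none more H3K27ac, beside 5.34% and 4.34% of all 1890, with a median difference of 1.1 log2 beside 0.06. HSP90AA1 had RNAPII of 69.6, 71.3, 68.3 and 97.2 and H3K27ac of 117, 28.1, 74.7 and 9.46 (1.58 ± 0.26 log2, SE; limma adjusted p = 0.00983). HSPD1 and HSPE1, the mitochondrial chaperonin and its co-chaperonin, start from 1 shared promoter and have the same values (0.76 log2). They enter the counts of this list as 2 genes, although they are 1 measurement. HSPA1B had the highest adjusted p of the list (1.21 log2, limma adjusted p = 0.255), and since HSPA1A is a near-identical copy and only uniquely aligned reads were kept, both are uncertain. Without H3K27ac dCas9-p300(core) replicate 2, 2 of 11 passed, HSPA5 and HSP90AA1, beside 9.02% of all promoters, and the median difference was 0.60 log2. With the pair as 1 sample, 2 of 8 passed, beside 0.582%, and in the run with both antibodies 4 of 11, beside 13.8%.

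Immediate early genes, which respond within minutes to growth signals, had RNAPII in 4 of 4 libraries at 16 of 20 promoters and H3K27ac in the 3 longer lists at 16, while EGR3 had no H3K27ac peak and IER3 no RNAPII peak in any library. Of 5 tested in all libraries, BTG2 and ZFP36 had relatively more RNAPII, beside 5.34% of all, and with the pair as 1 sample none of the 5 passed in limma. Of 13 tested without the shortest list, 5 had relatively more RNAPII, beside 9.02% of all, with a median difference of 0.76 log2 beside 0.08. MYC was the largest of these, with RNAPII of 22.5, 25.2, 20.9 and 42.5 and H3K27ac of 16.9, 9.86 and 15.3 (1.86 log2, limma adjusted p = 0.00759). JUN followed with RNAPII of 43.1, 42.3, 39.5 and 48.1 and H3K27ac of 51.9, 10.4 and 53.2 (1.39 log2, limma adjusted p = 0.0217). At the other end of the list, JUND had H3K27ac of 171, 32.9, 111 and 4.33 and RNAPII of 29.8, 29.9, 14.3 and 83.1, and did not pass. Of 16 tested in the run with both antibodies, 6 had relatively more RNAPII, beside 13.8% of all, and none more H3K27ac.

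Cytosolic ribosomal protein genes were occupied by RNAPII more regularly than by H3K27ac. RNAPII was in 4 of 4 libraries at 83 of 87 promoters (95.4%, beside 46.6% of all protein-coding genes), and H3K27ac was in the 3 longer lists at 57 (65.5%, beside 42.0%). Of 28 tested, 5 had relatively more RNAPII, beside 5.34% of all, and none more H3K27ac. Without the shortest list the counts were 12 of 57, beside 9.02%, and none, with a median difference of 0.83 log2. The largest of these 12 were RPS24 (2.56 log2, limma adjusted p = 0.019) and RPS4X (2.42 log2, limma adjusted p = 0.0148). With all libraries, RPL12 and RPL15 were the largest of those that passed, and RPS19 was the lowest tested (-0.32 log2, limma adjusted p = 0.361). RPL3 had RNAPII of 28.2, 24.4, 27.9 and 40.9, and H3K27ac of 8.88, 25.7, 8.31 and 8.96, a difference of 2.00 log2 that did not pass (limma adjusted p = 0.0854). With the pair as 1 sample none of 28 passed in limma, while 18 of 57 did in the run with both antibodies, beside 13.8% of all.

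Of 66 replication-dependent histone genes, 37 had no promoter peak in any library, 25 had RNAPII in 4 of 4, and 10 had H3K27ac in the 3 longer lists. H1-4 alone passed among 7 tested, which include genes in pairs or groups that share peaks (H2AC6 with H2BC4, and H2AC20 and H2AC21 with H2BC21), beside 5.34% of all. None of the 7 passed in limma with the pair as 1 sample, and in the run with both antibodies 7 of 11 passed toward RNAPII, beside 13.8% of all. These genes are short and clustered, with similar copies, so that assignment to 1 gene is uncertain. Glycolytic genes had RNAPII in 4 of 4 at 13 of 15 promoters and a median difference of -0.03 log2 over 7 tested. Of these, PKM alone had relatively more RNAPII (1.04 log2, limma adjusted p = 0.0141), beside 5.34% of all. None of the 7 did so in limma with the pair as 1 sample, and in the run with both antibodies PKM did not pass (0.64 log2, limma adjusted p = 0.0878). In that run 2 of 13 passed toward RNAPII and 1 toward H3K27ac, beside 13.8% and 8.75% of all. HK1 was the lowest (-0.56 log2, limma adjusted p = 0.181), ALDOC had no H3K27ac peak, and without the shortest list ALDOA had relatively more H3K27ac (-0.83 log2, limma adjusted p = 0.0295). At PGK1 the fold enrichments were among the lowest of the list, 2.98 and 2.07 for H3K27ac and 8.62, 13.2, 1.94 and 1.56 for RNAPII.

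The subunits of RNAPII itself had RNAPII in 4 of 4 libraries at 11 of 12 promoters, POLR2J having no peak of either antibody, and H3K27ac in the 3 longer lists at 8. Of these 8, POLR2C alone passed toward RNAPII without the shortest list (2.22 log2, limma adjusted p = 0.00879), beside 9.02% of all. POLR2A, the largest subunit, had a larger difference that did not pass (2.44 log2, limma adjusted p = 0.0507). In the run with both antibodies POLR2A passed (3.42 log2, limma adjusted p = 0.0199), and 3 of 9 subunits did, beside 13.8% of all. POLR2A had RNAPII of 30.6, 30.9, 33.4 and 36.6 and H3K27ac of 8.96, 25.9 and 6.2, the highest in dCas9-VP16(10x) replicate 2, which is not of that run. The writers, readers and erasers of H3K27ac had H3K27ac in the 3 longer lists at 7 of 8 promoters and RNAPII in 4 of 4 at 5. EP300, the gene of p300, had H3K27ac of 125, 29.6, 107 and 8.52 and RNAPII of 10.8, 14.6, 18.6 and 27.5. It had relatively more H3K27ac without the shortest list (-1.23 log2, limma adjusted p = 0.0195) and did not pass with all libraries (-0.73 log2, limma adjusted p = 0.128).

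The 476 C2H2 zinc finger genes, many of which encode repressors of repeats, had RNAPII in 4 of 4 at 68.7% of promoters and H3K27ac in the 3 longer lists at 51.7%, beside 46.6% and 42.0% of all genes. Without the shortest list, 15 of 223 passed toward RNAPII and 13 toward H3K27ac, beside 9.02% and 7.16% of all, with a median of 0.09 log2 beside 0.08. With all libraries 1 and 3 of 41 passed, beside 5.34% and 4.34% of all. With the pair as 1 sample 1 and 0 passed, beside 0.582% and 0.317%. In the run with both antibodies 19 and 17 of 254 did, beside 13.8% and 8.75%.

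**Figure D5:**
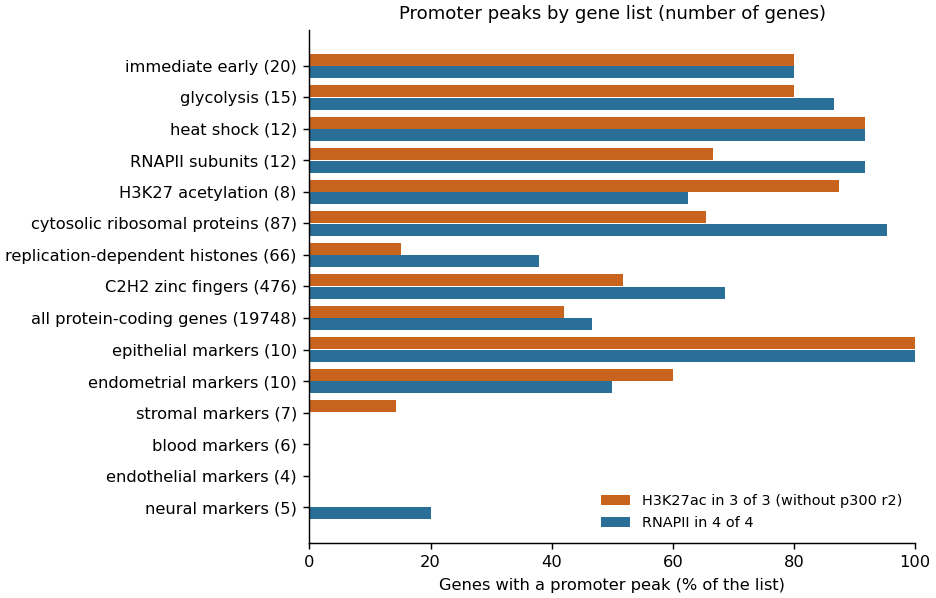
Share of each gene list (%) with a promoter peak of H3K27ac in all 3 libraries other than dCas9-p300(core) replicate 2 (orange) and of RNAPII in all 4 libraries (blue), with the number of genes in parentheses. Ribosomal protein genes reach 95.4% for RNAPII and 65.5% for H3K27ac, all 10 epithelial markers have both, and blood and endothelial markers have neither.

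The labelled cell type was checked against marker genes. All 10 epithelial markers had RNAPII in 4 of 4 libraries and H3K27ac in the 3 longer lists. KRT8 and KRT18 had the same values in every library except H3K27ac dCas9-p300(core) replicate 1, so they are not separate measurements. EPCAM had H3K27ac of 103, 19.8, 67.0 and 6.72 and RNAPII of 23.3, 23.4, 9.82 and 60.5. CDH1, the gene of E-cadherin, had RNAPII of 42.9, 43.2, 32.5 and 89.1 and H3K27ac of 54.5, 7.7 and 32.8, and it was the 1 epithelial marker with a called difference (1.90 log2 without the shortest list, limma adjusted p = 0.00309). Of 10 endometrial and Müllerian markers, 6 had H3K27ac in the 3 longer lists and 5 had RNAPII in 4 of 4. FOXA2 had no peak, and PGR, the progesterone receptor, had 1 peak of each antibody. ESR1, the estrogen receptor alpha gene, had H3K27ac of 135, 28.8, 98.7 and 12.7 and RNAPII of 17.9, 13.8, 10.6 and 40.02, and relatively more H3K27ac (-0.77 log2, limma adjusted p = 0.0328, and -1.12 log2 without the shortest list). In the run with both antibodies ESR1 also passed (-1.30 log2, limma adjusted p = 0.0208), and with the pair as 1 sample none of the 4 endometrial markers tested did in limma. EMX2 also had relatively more H3K27ac without the shortest list (-0.74 log2, limma adjusted p = 0.0451). SOX17 had the opposite balance without the shortest list (1.15 log2, limma adjusted p = 0.0108), with RNAPII of 45.8, 52.1, 28.3 and 108.

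Markers of other cell types were nearly empty. None of 6 blood markers had a peak in any library. Of 7 stromal markers only COL1A1 had any, with H3K27ac in 3 libraries and RNAPII in 3. Of 4 endothelial markers with a coding start in the annotation, KDR had a peak in RNAPII dCas9-p300(core) replicate 2 alone. Of 5 neural markers, MAP2 had RNAPII in 4 of 4 (8.11, 10.3, 8.18 and 27.4) and H3K27ac in both replicate 1 libraries (15.8 and 11.7), SNAP25 had RNAPII in 3, and NEUROD1, GFAP and SYT1 had no peak.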

How the data were processed

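ChIP-seq peaks of 8 Ishikawa libraries (4 H3K27ac, 4 RNAPII, all with IL1RN gRNAs) were analysed. Per the methods of the study and the submitters' processing notes, the authors aligned single-end reads to hg19 with Bowtie 1.1.2, keeping uniquely aligned reads, removed duplicates with SAMtools, and called peaks per library with MACS2 2.1.0.20140616. Whether an input control was used is not given in the sources used here. Each peak in the deposited lists comes with a summit, a fold enrichment (a ratio to background) and a -log10 p-value. The authors' table gives a normalized signal at the study's target regions, for which they counted reads with bedtools and divided by total depth and by the mean depth in peaks of the antibody. Reads at the 22 regions other than the IL1RN promoter were recovered as whole multiples of the signal of 1 read, within 2% of a read, and used for the chi-square check of replicates and for the values at the study's regions. Precision per peak cannot be given, since the depth is unknown.

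Peaks on chromosomes 1 to 22 and X were used, without those within 5 kb of IL1RN transcript starts. Starts were those of GENCODE 44 lifted to hg19. A promoter value was the highest fold enrichment of peaks overlapping 1 kb on either side of a coding start. Libraries were compared by exact permutation tests over 70 assignments. Promoters were compared with limma 3.58.1 (R 4.3.3, eBayes with trend) on centred log2 fold enrichment, with Benjamini-Hochberg adjustment over all genes tested. The code was tested on simulated data with known answers. Alternatives were a stricter threshold, lists of equal length, other windows, overlaps and scales, a construct term, a replicate block, 1 construct alone and each library left out. Restriction to the run with both antibodies (libraries that share 1 number in their peak names) was chosen after seeing the data. So were 2 libraries left out together, and the pair as 1 sample without the shortest list.

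The members, gene lists and tests were chosen with earlier results of these data known. Genes were named by rule, as the 12 strongest promoters per antibody, the 5 strongest regions beyond 10 kb, the 8 largest called differences per direction without overlap, the 8 strongest promoters with 1 antibody only, the extremes and absent members of each list, and cell type markers. Of the strongest RNAPII promoters, 1 is not reported here.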

Additional observations from a re-analysis of the deposited data

How the results depend on the processing

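The number of promoters that passed in limma depended strongly on the libraries and on the genes tested. Against 101 with more RNAPII and 82 with more H3K27ac, there were 173 and 145 with -log10 p in place of fold enrichment. Construct as a covariate gave 74 and 48. A peak in 3 of 4 libraries as the filter gave 148 and 140, including 0 of the 101 and 56 of the 82. That fit set each missing value to the lowest fold enrichment of its library before centring. Its differences moved too, from 1.98 to 1.39 log2 at FLNA and from -1.54 to -2.13 log2 at SETD2. With the RNAPII dCas9-VP16(10x) pair as 1 sample there were 11 and 6. Leaving out 1 library gave 10 to 639 and 4 to 507, the highest without H3K27ac dCas9-p300(core) replicate 2, for which 7084 promoters instead of 1890 were tested. Of alternatives chosen after seeing the data, the run with both antibodies gave 1083 and 685, the libraries without H3K27ac and RNAPII dCas9-p300(core) replicate 2 gave 490 and 431, and the pair as 1 sample without the shortest list gave 218 and 189. Limma called 0 and 0 of 512 promoters without an HA peak (121 at an unadjusted p under 0.05). There the differences shift only with the centring, while the variances and the adjustment of limma change too. With dCas9-VP16(10x) only, limma called 0 and 0 (1360), and with dCas9-p300(core) only 0 and 0 (150). None of the 101 and 82 promoters changed sign. At the 16 named promoters, 120 alternative values missed the threshold and none reversed. Since these fits reuse the values on which the promoters were chosen, a kept sign is no independent check.

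Same-numbered H3K27ac and RNAPII libraries of a construct correlated at -0.524 to 0.198 in their deviations, and the other combinations at -0.529 to 0.55. Correlations among so few libraries cannot show whether the numbers pair the samples. With a replicate block, 9 and 5 promoters passed, and the summit distance of 113.5 bp had p = 0.125, the smallest that an exact test of 4 pairs can give.

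With the same number of peaks per library, the difference near a TSS reversed to -10.5 percentage points, that in gene bodies to 7.91 and that of intergenic peaks to 2.60. With protein-coding transcripts only, the first 2 became 11.2 and -8.61 (exact permutation p = 0.0286 each). Median width reversed to -72.0 bp with dCas9-p300(core) only. The summit distance was 100.5 to 118.75 bp with 1 library left out. It kept its direction and missed the threshold at 115 bp with dCas9-VP16(10x) only, 109.5 bp with dCas9-p300(core) only, 81.5 bp in the run with both antibodies, and 102 bp without the shortest H3K27ac list and RNAPII dCas9-p300(core) replicate 2, where too few libraries are left to pass.

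The share of constant H3K27ac regions with RNAPII was 36.5% with the same number of peaks, 90.6% with a peak in 3 of 4 libraries, 73.5% to 86.8% with 1 library left out, 58.9% in the run with both antibodies and 76.8% without the 2 replicate 2 libraries of dCas9-p300(core). The share of RNAPII regions with H3K27ac was 10.9% at a -log10 p of 20 or more, then 19.1%, 49.1%, 13.6% to 61.4%, 66.4% and 55.5% in the same order. The number of peaks was not compared under lists of equal length, which makes it equal. The cause of these shifts was not tested.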

Other observations

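The authors' table covers 22 regions around MMP17, HES2, FHL2 and CISH, which are binding sites of the estrogen receptor, adjacent regions and promoters. Of these, 1 had a peak in all 8 libraries, the estrogen receptor binding site HES2-3. Its normalized signal in the authors' table was 5.74, 2.15, 4.79 and 1.8 for H3K27ac and 1.5, 1.45, 0.945 and 2.41 for RNAPII, in the order dCas9-VP16(10x) replicates 1 and 2, then dCas9-p300(core) replicates 1 and 2. HES2-1 and the HES2 promoter had a peak in 3 H3K27ac and 3 RNAPII libraries. The promoters of FHL2 and CISH had RNAPII peaks in 4 libraries and H3K27ac peaks in 2, and that of MMP17 had a peak in 1 library of each antibody. The site MMP17-1 and the adjacent region MMP17-A each had RNAPII peaks in 3 libraries and no H3K27ac peak.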
